A study of Rattus norvegicus with 6 samples.

Results

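The genes described here were taken by symbol as parts of the motile cilium, factors that assemble its dyneins, or its regulator. They were all genes whose rat RefSeq symbol begins with Dnah, Dnai, Dnaaf, Rsph, Tekt or Cfap, together with Foxj1 and Ak7. RefSeq held 93 such genes. Of these, 52 had a matched probe on the arrays, and 46 were tested because at least 3 of the 6 arrays gave a signal well above background, among 11966 named genes and 22818 probes tested in all. Messenger RNA was measured in hippocampal tissue of adult male Sprague Dawley (SD) rats on single-colour Agilent arrays, 1 array per tissue sample. The AD group (3 arrays) had received Aβ1-42 oligomers through a cannula into the lateral ventricles on both sides, an injection model of Alzheimer's disease. The Sham group (3 arrays) was given vehicle by the same route. The labels do not tie a sample to an animal, so each p-value reflects how far these tissue samples spread.

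A motile cilium is a beating hair on a cell surface. Its core, the axoneme, is a ring of doublet microtubules around a central pair. Outer and inner arm dyneins, built from heavy and intermediate chains, move the doublets against each other, and the Dnaaf proteins assemble those dyneins in the cytoplasm before they enter the cilium. Radial spokes (Rsph) relay signals from the central pair to the dyneins, tektins (Tekt) and many Cfap proteins lie in the doublets, and the transcription factor Foxj1 switches on the whole programme. In the brain these cilia are carried by the ependymal cells that line the ventricles, while epithelial cells of the choroid plexus bear tufts of cilia with a similar gene programme. Hippocampal neurons instead carry a single primary cilium, which has no dynein arms or spokes but uses the same intraflagellar transport.

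Levels are given as the log2 processed signal minus the 75th percentile of the array, so that 0 is the 75th percentile and a gene below it has a negative level. Levels of different probes are not comparable. The 75th percentile itself ran from 795 to 932 intensity units over the AD arrays, in the order replicate 2, 1, 3, and from 429 to 755 over the Sham arrays. All 8 markers of hippocampal neurons were well above background on all 6 arrays. The AD arrays shared a scan, Sham replicates 1 and 2 shared another of that day, and Sham replicate 3 was scanned by itself on another day, so no scan held both groups and effects of the scan cannot be told apart from those of the group. A comparison within the first day removes the day only. Replicate numbers follow the scanner output. In the deposited table of processed values the columns of AD replicates 2 and 3 match each other's scanner output, which leaves the group comparison as it is.

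AD was set against Sham to ask whether these genes differ in the hippocampus after Aβ injection. Foxj1 and a few axoneme genes were far higher on AD replicates 1 and 3 than on AD replicate 2 or the Sham arrays, and no member rose by the test. At an adjusted p under 0.05 limma called 2 of the 46 members (4.35%), against 12.5% of all tested probes, and both were lower in AD. These were the dynein assembly factors Dnaaf2 and Dnaaf9. None was called higher (0 of 46), where 4.15% of all tested probes were, and 8 members had an unadjusted p under 0.05 (31.3% of all tested probes), 3 with a higher AD mean (12.7% of all tested probes) and 5 with a lower one (18.5%). Over the 11966 named genes tested, with 1 probe each as for the members, 14.9% were called, 4.08% higher and 10.8% lower. The AD mean was above the Sham mean for 29 of 46 members, against 48.7% of all tested probes, and by more than 0.5 for 7 of them (15.2% of members, against 8.98%). The median change was 0.13 on the log2 scale, against -0.011 over all tested probes. All 3 AD values lay above all 3 Sham values for Cfap141, Cfap410 and Foxj1 (15.6% of all tested probes did so), and all lay below for Dnaaf10, Dnaaf2, Dnaaf9, Dnai4, Tekt4 and Tektip1 (23.3%). The tissue was measured in bulk, so fewer cells of a type and less RNA per cell cannot be told apart. The plot of all members by array gives each value against the Sham mean.

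**Figure D1:**
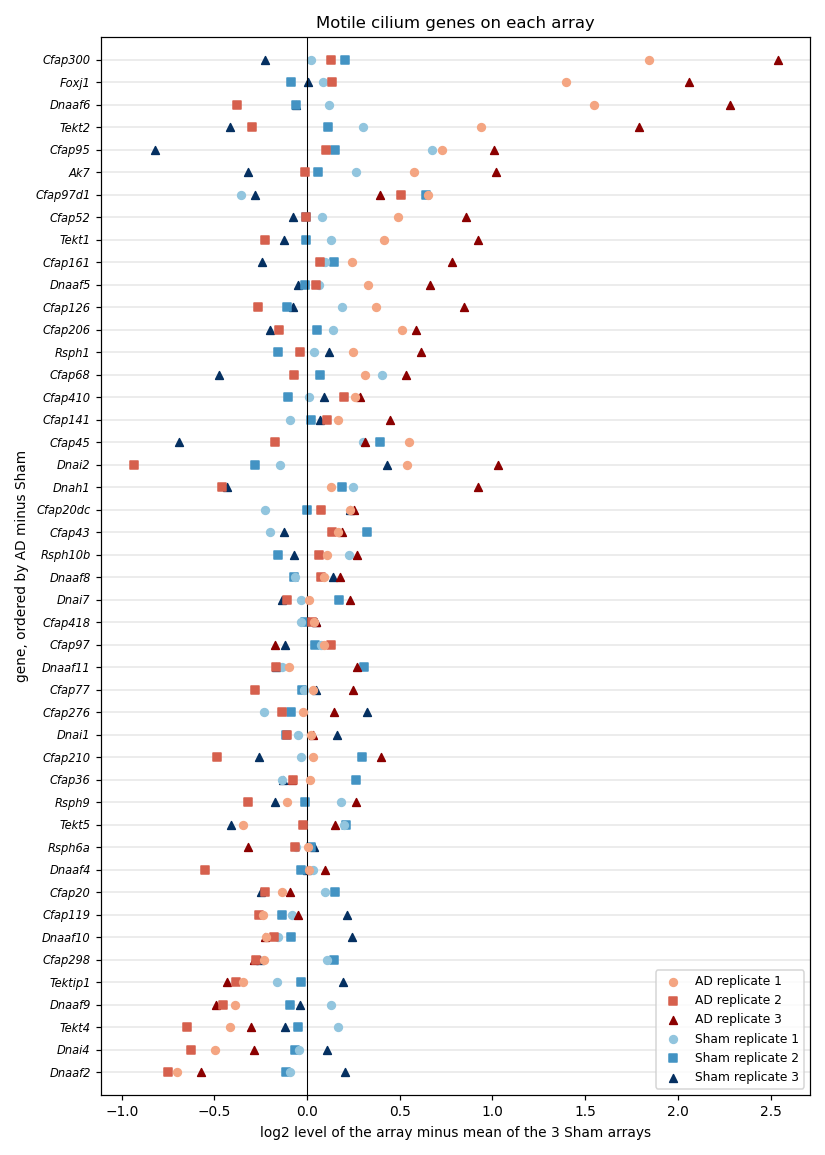
Level of each of the 46 tested motile cilium genes on each array, as the log2 level minus the mean of the 3 Sham arrays (horizontal axis), with genes ordered by the difference between the AD and Sham means (vertical axis). Each point is 1 array. The uppermost genes, from Cfap300 to Tekt2, had AD replicates 1 and 3 far to the right of the Sham arrays and AD replicate 2 among or next to them, while all 3 AD arrays of Dnaaf2 and Dnaaf9, near the bottom, lay to the left of every Sham array.

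The regulator Foxj1 had levels of 0.39, -0.88 and 1.05 in AD, replicates 1 to 3 in turn, and of -0.93, -1.10 and -1.01 in Sham, and the same order is used throughout. The Sham arrays were close to each other, AD replicates 1 and 3 stood well above them, and AD replicate 2 was only just above the highest Sham array. The difference of the means was 1.20 ± 0.46 (SE, n = 3 per group, limma adjusted p = 0.140), and it was 0.77 without AD replicate 3 and 1.73 without AD replicate 2. Foxj1 thus did not pass the test although its groups did not overlap. When arrays were weighted by their quality, which takes noisier arrays less into account, limma gave 1.38 with an adjusted p of 0.0235, but that setting called 38.4% of all tested probes and 17.4% higher, against 4 of the 46 members higher. Over the other alternatives the adjusted p of Foxj1 was 0.0516 to 0.539.

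The dynein assembly factors held both called members. Dnaaf2, which folds dynein heavy chains together with chaperones, had levels of 0.38, 0.33 and 0.51 on the AD arrays and of 0.99, 0.97 and 1.29 on the Sham arrays. Every AD array was below every Sham array, and the spread within AD was small. The change was -0.67 ± 0.12 (limma adjusted p = 0.0268). Dnaaf9 had levels of -1.27, -1.34 and -1.37 in AD against -0.75, -0.97 and -0.92 in Sham, again without overlap, and changed by -0.45 ± 0.09 (limma adjusted p = 0.0360). Both calls were lost when any array other than Sham replicate 3 was left out, where 0 to 2 of all tested probes were called, and Dnaaf2 then differed by -0.64 to -0.73. Both were also lost with scan as a random block, where 0 of all tested probes were called.

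Dnaaf6, a cochaperone for dynein arms, had another pattern. It was at -3.04, -4.97 and -2.31 in AD and at -4.48, -4.65 and -4.65 in Sham. AD replicate 2 was the lowest of all 6 arrays and AD replicate 3 the highest, so the groups overlapped and the change of 1.15 ± 0.64 had a limma adjusted p of 0.278. It was 1.91 without AD replicate 2, 0.59 without AD replicate 3 and 0.44 with normexp background correction, which estimates the background from the spots. Dnaaf5, another assembly factor, had a smaller difference of 0.34 ± 0.16 with levels of -4.73, -5.01 and -4.39 in AD and -4.99 to -5.10 in Sham. Dnaaf10 lay below every Sham array on all 3 AD arrays, with 0.77, 0.81 and 0.77 against 0.84, 0.91 and 1.24, but the difference of -0.21 ± 0.12 did not pass (adjusted p = 0.303). The remaining factors tested, Dnaaf4, Dnaaf8 and Dnaaf11, differed by -0.15 to 0.11. Over all 8 factors tested the median change was -0.07, and AD replicates 1 to 3 had medians of -0.04, -0.28 and 0.14 relative to the Sham mean. Assembly factors therefore included members that were lower on every AD array. They also included Dnaaf6 and, on a smaller scale, Dnaaf5, which were higher on AD replicates 1 and 3 alone.

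**Figure D2:**
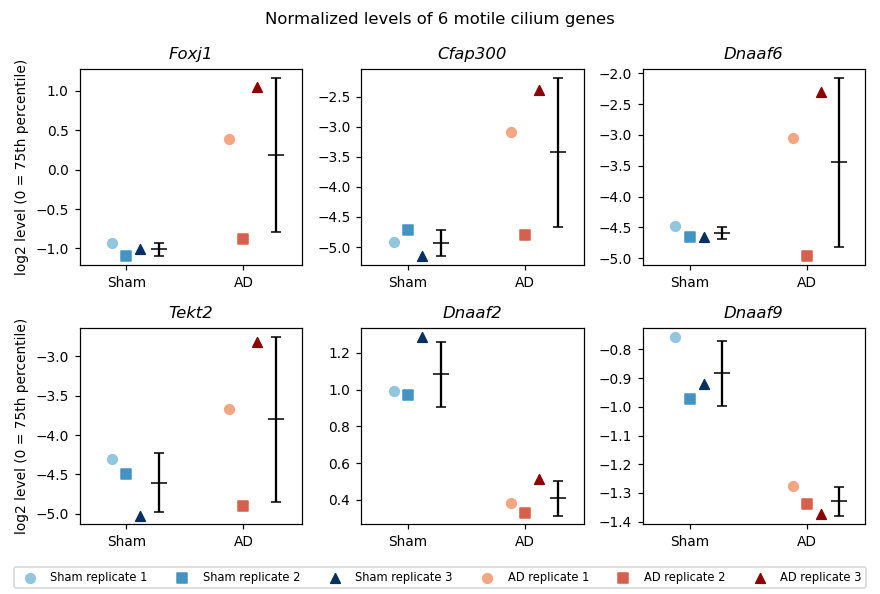
Normalized log2 levels of Foxj1, Cfap300, Dnaaf6, Tekt2, Dnaaf2 and Dnaaf9 (vertical axes, each panel with its own scale, 0 being the 75th percentile of the array) on the 3 Sham and 3 AD arrays. Points are arrays and the bars beside them the group mean ± SD. In the first 4 genes AD replicate 2 sat near the Sham arrays and AD replicates 1 and 3 above them, whereas in Dnaaf2 and Dnaaf9 all 3 AD arrays lay together below the Sham arrays.

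The dynein motors themselves were sparsely covered. None of the outer arm heavy chains (0 of 5) and 1 of 8 inner arm heavy chains had a matched probe. That gene, Dnah1, was dim and well above background on 3 arrays only, with levels of -6.01, -6.60 and -5.22 in AD and -5.90, -5.95 and -6.58 in Sham, which overlapped. Its difference of 0.20 ± 0.37 changed sign under several settings. Of the intermediate chains 4 of 5 were tested. Dnai4 was at -2.29, -2.42 and -2.09 in AD and at -1.84, -1.86 and -1.69 in Sham. All AD arrays were below all Sham arrays, and the change of -0.47 ± 0.12 just missed the threshold (limma adjusted p = 0.0516). It passed with median scaling (-0.52), quantile normalization (-0.52), the deposited log2 table (-0.51), array weights (-0.44) and the filter on all 6 arrays (-0.47), and over the remaining alternatives its adjusted p was 0.0542 to 0.292. Dnai1 and Dnai2, the intermediate chains of the outer arm, did not pass, with differences of -0.02 ± 0.11 and 0.21 ± 0.51. Dnai2 was very uneven, at -5.45, -6.93 and -4.97 in AD, with AD replicate 2 below every Sham array and AD replicate 3 above them. Dnai7 lay between 0.10 and 0.44 in AD and between 0.07 and 0.38 in Sham, a difference of 0.04 ± 0.13 that changed sign under some settings.

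None of the 4 radial spoke genes tested was called. Rsph1, a spoke head protein, had levels of -0.13, -0.41 and 0.24 in AD and of -0.34, -0.53 and -0.26 in Sham. AD replicates 1 and 3 were above all Sham arrays and AD replicate 2 was within their range, and the difference was 0.27 ± 0.18 (adjusted p = 0.353). Rsph10b differed by 0.15 ± 0.13, Rsph9 by -0.05 ± 0.18 and Rsph6a, a spoke protein known from sperm, by -0.13 ± 0.11. Rsph6a did not share the array pattern of Rsph1, since its lowest array was AD replicate 3, at -1.67, against -1.34 and -1.41 on the other AD arrays and -1.31 to -1.41 in Sham.

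Tektins form filaments along the doublets, and members of the group went different ways. Tekt2 was at -3.67, -4.90 and -2.82 in AD and at -4.31, -4.49 and -5.02 in Sham. Again AD replicates 1 and 3 were above every Sham array while AD replicate 2 was within their range, and the difference was 0.81 ± 0.52 (adjusted p = 0.341), 0.32 without AD replicate 3, 1.36 without AD replicate 2 and 0.19 with normexp correction. Tekt1 followed the same arrays on a smaller scale, with -4.76, -5.41 and -4.26 in AD against -5.05, -5.19 and -5.30. Tekt4, a tektin known mainly from sperm, was instead below every Sham array on each AD array, at -2.07, -2.30 and -1.95 against -1.48, -1.69 and -1.77, with a change of -0.46 ± 0.13 (adjusted p = 0.0714). Tektip1, which encodes a protein of the tektin bundle, was likewise below Sham throughout, at 0.14, 0.10 and 0.05 against 0.33, 0.45 and 0.68, with a change of -0.39 ± 0.11 (adjusted p = 0.0750). Neither passed the test. Tekt5 differed by -0.07 ± 0.22.

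The Cfap proteins were the largest group, with 22 of 48 genes tested and 0 called in either direction, while 16 of the 22 had a higher AD mean and their median change was 0.21. Cfap300, which takes part in dynein arm assembly, had the largest difference of the 46 members tested. Its levels were -3.08, -4.80 and -2.39 in AD and -4.91, -4.72 and -5.16 in Sham, so that AD replicate 2 fell among the Sham arrays. The difference was 1.51 ± 0.59 (limma adjusted p = 0.145). It was 2.19 without AD replicate 2, 0.99 without AD replicate 3 and 0.44 with normexp correction, where it was below that of Foxj1 (1.07), and passed with array weights (1.69, adjusted p = 0.0273). Cfap95 had the next largest difference in this group, 0.61 ± 0.42, with -3.18, -3.81 and -2.90 in AD, but its Sham arrays ran from -3.23 to -4.73, and the groups overlapped. Its difference was 0.20 without Sham replicate 3, 0.95 without Sham replicate 1 and 0.08 with normexp correction. Cfap97d1, which was well above background on 3 arrays, differed by 0.52 ± 0.28, and by -0.26 with normexp background correction. Cfap52, Cfap126, Cfap161 and Cfap206 differed by 0.32 to 0.45, each with AD replicates 1 and 3 above every Sham array and AD replicate 2 at or below the highest of them. Cfap20, Cfap418 and Cfap298 had differences of -0.15 ± 0.13, 0.04 ± 0.08 and -0.26 ± 0.13. Ak7, an adenylate kinase of the axoneme, had levels of -1.96, -2.55 and -1.52 in AD and of -2.28, -2.48 and -2.86 in Sham, with a difference of 0.53 ± 0.29 (adjusted p = 0.265). It was 0.80 without AD replicate 2, 0.28 without AD replicate 3 and 0.27 with normexp correction.

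The members shared a pattern among the AD arrays. The selection by symbol did not use it, but the order counted was taken from these data, so its shares are a description and not a test. AD replicate 3 was the highest and AD replicate 2 the lowest of the AD arrays for 36 of 46 members (78.3%), an order that 25.6% of all tested probes showed. The 10 exceptions were Cfap298, Cfap36, Cfap45, Cfap97, Cfap97d1, Dnaaf10, Dnaaf9, Rsph6a, Tekt5 and Tektip1. Of the called members Dnaaf2 had this order and Dnaaf9 did not. Relative to the Sham mean the median member was at 0.10, -0.12 and 0.27 on AD replicates 1 to 3. The AD arrays were more than 1 log2 unit apart for 9 members (19.6%), against 4.25% of all tested probes, namely Dnaaf6 (2.66), Cfap300 (2.41), Tekt2 (2.09), Dnai2 (1.96), Foxj1 (1.93), Dnah1 (1.38), Tekt1 (1.15), Cfap126 (1.11) and Ak7 (1.03). Such ranges were more common among dim probes. They were seen in 6 of 21 members with a mean level under -3, against 7.14% of such probes. Of the other 25 members 3 had them, against 2.82%. Dnai2, Dnah1 and Tekt1 were well above background on only 2 AD arrays, so their ranges include a value near background. The AD range exceeded the Sham range in 24 of 46 members (52.2%, against 30.7% of all tested probes).

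The 75th percentile of the processed signal ran in the same order over the AD arrays, and its part in the pattern was not tested. The order held for 36 members with the percentile taken over detected probes (31.6% of all tested probes), for 32 with quantile normalization (22.6%), for 27 with median scaling (16.4%) and for 25 with normexp background correction (12.5%). It was seen in 17 of the 21 members with a mean level under -3 (32.8% of all such probes) and in 19 of the other 25 (22.0%).

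Other genes of the ciliary programme, from lists that hold no member, were set beside these. Of 51 other genes of the axoneme and of ciliary motility 30 were tested, and 23 of them (76.7%) had the same order of AD arrays. Relative to the Sham mean their median was 0.17, -0.20 and 0.46 on AD replicates 1 to 3, and the median change was 0.16. Limma called 1 of the 30 higher (3.33%) and 1 lower (3.33%), shares below those of all tested probes (4.15% and 8.39%). Kif27, a kinesin tied to motile cilia, was at -3.33, -3.70 and -3.13 in AD and at -4.77, -4.49 and -5.27 in Sham, so all AD arrays, AD replicate 2 included, were above Sham, and it rose by 1.45 ± 0.24 (adjusted p = 0.0240). Drc3, a subunit of the complex that regulates dynein between the doublets, fell by 0.63 ± 0.11 (adjusted p = 0.0276), from 0.36, 0.27 and 0.11 in Sham to -0.39, -0.24 and -0.51 in AD. As with the members, both calls were absent when any array but Sham replicate 3 was left out, and with scan as a random block, slide position as a block or the replicate block. Of the regulators of multiciliated cell fate 2 of 10 were tested. Tp73, which acts upstream of Foxj1, was at -1.79, -2.72 and -1.32 in AD and at -3.05, -2.64 and -2.93 in Sham, again with AD replicate 2 inside the Sham range, and differed by 0.93 ± 0.35 (adjusted p = 0.135). Rfx2, a factor that binds promoters of ciliary genes, differed by 0.18 ± 0.14.

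Intraflagellar transport and the BBSome, which build and maintain both motile and primary cilia, showed a different picture. Of 30 genes tested, 6 (20%) fell and 0 rose, where 8.39% of all tested probes and 10.8% of named genes were called lower. The 6 were Kif3b, a motor subunit of the transport (-0.81 ± 0.14), Bbs5, a BBSome subunit (-0.73 ± 0.11), and the transport proteins Ift22 (-0.44 ± 0.10), Ift88 (-0.44 ± 0.09), Ift57 (-0.36 ± 0.08) and Ift70b (-0.35 ± 0.08). The order of AD arrays seen in the members was present in 9 of these 30 genes (30.0%), close to its share among all tested probes. The median on AD replicates 1 to 3 was -0.14, -0.15 and -0.14 relative to the Sham mean, so the 3 AD arrays were close to each other. The 6 calls were 0 when any array other than Sham replicate 3 was left out, 3 with the percentile over detected probes or with normexp correction, and 0 with scan as a random block. Markers of some other cells were called too, but 0 of 5 astrocyte markers and 0 of 5 microglia markers were. Of 8 markers of hippocampal neurons, Fibcd1 (-0.66 ± 0.14) and Spink8 (-0.60 ± 0.12) fell, but 4 of the 8 had a higher AD mean. The median change of the 8 was 0.047. The summed signal of all 8 was 26.5 to 29.5 times the 75th percentile in AD and 32.4 to 34.5 times in Sham. Fibcd1, with the highest mean level in this list, is part of that sum, and no sum was taken without it. Cldn11 and Mobp of 5 oligodendrocyte markers (40%) and Cldn5 of 5 endothelial markers (20%) were called higher, against 4.15% of all tested probes. In each of these lists 4 of 5 had a higher AD mean, and the lowest changes were -0.33 (Mbp) and -0.24. The summed oligodendrocyte signal was 86.9 to 107 in AD and 100 to 151 in Sham, and the endothelial sum 12.4 to 15.5 and 6.17 to 13.4. The part of such cells in the fall of the transport genes was not tested. The 5 genes of the neuronal primary cilium tested had a median change of -0.29, and 0 were called.

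**Figure D3:**
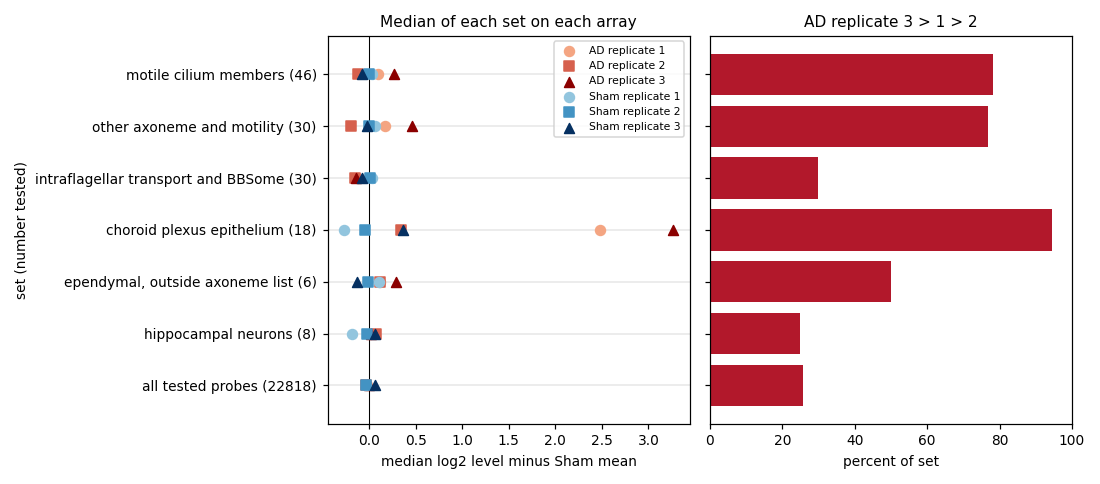
Left, the median over the tested genes of each set (vertical axis, number tested in brackets) of the log2 level minus the Sham mean (horizontal axis), with 1 point per array. Right, the percent of each set in which AD replicate 3 was the highest and AD replicate 2 the lowest of the AD arrays. The choroid plexus set and, on a smaller scale, the motile cilium members and other axoneme genes had AD replicates 3 and 1 to the right and AD replicate 2 to the left, with shares of 94.4%, 78.3% and 76.7% against 25.6% of all tested probes.

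Markers of choroid plexus epithelium moved with the members over the AD arrays. Of 23 markers 21 had a probe and 18 were tested. All 18 had a higher AD mean, 17 (94.4%) had the same order of AD arrays, and the median was 2.48, 0.35 and 3.27 above the Sham mean on AD replicates 1 to 3. Over the Sham arrays the 2 sets did not move alike. There the median was -0.27, -0.04 and 0.37 for these markers and 0.03, -0.01 and -0.08 for the members. Limma called 0 of the 18, while 11 (61.1%) had an unadjusted p under 0.05, all with a higher AD mean, against 12.7% of all tested probes. The summed signal of the 21 probes was 87.5 to 178 times the 75th percentile in AD and 31.7 to 109 times in Sham, and without Ttr, which made up most of it, 7.45 to 61.7 times in AD and 5.0 to 7.69 times in Sham. Ttr, the transthyretin gene, was well above background on all 6 arrays, and Kcnj13 and Otx2 were as well. Cldn2, Prlr and Abca4 were not well above background on any Sham array nor on AD replicate 2. The part of this tissue in the pattern of the motile cilium genes was not tested.

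Ependymal markers outside the axoneme list had a median change of 0.13, against 1.98 for the choroid plexus markers. All 6 were tested, 0 were called, and their median was 0.11, 0.12 and 0.29 above the Sham mean on AD replicates 1 to 3. The order of AD arrays was present in 3 of them. Calml4, a calmodulin-like protein, had the largest difference (1.05 ± 0.41, adjusted p = 0.145) with levels of 1.11, 0.02 and 1.74 in AD and of -0.05, -0.15 and -0.07 in Sham. Drc12 in this list is itself a regulator of axonemal dynein and differed by 0.47 ± 0.44. The summed signal of the ependymal markers was 3.35 to 5.79 in AD and 2.77 to 3.32 in Sham, in multiples of the 75th percentile. Calml4 is part of that sum, and no sum was taken without it. Of the 6 markers only 1, Calml4, had all AD values above all Sham values (16.7%, against 15.6% of all tested probes).

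Promoters of the members were compared because regulatory factor X (RFX) proteins and Foxj1 bind upstream of ciliary genes. RefSeq (GRCr8) promoter sequences were matched for 78 of the 93 genes, 38 of them tested, and the 250 bases before the start were searched on both strands. The X-box, the site of RFX proteins, was searched as GTNNCC, then 3 bases of any kind, then GNAAC. It was present in 9 of the 78 promoters (11.5%), against 1.69% of all 27457 promoters. The share was 23.1% of 39 promoters of the other axoneme genes and 0 of 34 for intraflagellar transport. Sites with another spacing were not counted. The shorter GTTGCCA, which can overlap an X-box, was found in 12.8% of the 78 and in 3.62% of all promoters. It was also found in 20.5% of the 39 other axoneme promoters and in 20.6% of the 34 for intraflagellar transport. TGTTTAC, a forkhead motif, was found in 3.85% of the 78 and in 3.25% of all promoters. Among tested members the X-box was present in Cfap20dc, Cfap298, Cfap95, Dnaaf2, Dnaaf5 and Dnaaf6. The members with it include both the called, lower Dnaaf2 and Dnaaf6, which was higher on AD replicates 1 and 3. These promoters are printed 5′ to 3′ in the direction of the gene, with that of Cfap95, whose X-box lay nearest to the start among these, and capitals mark the X-box.
Dnaaf2 (chr6:93406324-93406573, minus strand): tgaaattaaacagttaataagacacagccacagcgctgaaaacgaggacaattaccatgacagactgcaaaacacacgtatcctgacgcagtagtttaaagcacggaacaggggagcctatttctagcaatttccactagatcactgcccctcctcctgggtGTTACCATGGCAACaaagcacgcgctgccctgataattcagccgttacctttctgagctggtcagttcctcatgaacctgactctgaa
Dnaaf6 (chrX:108512752-108513001, plus strand): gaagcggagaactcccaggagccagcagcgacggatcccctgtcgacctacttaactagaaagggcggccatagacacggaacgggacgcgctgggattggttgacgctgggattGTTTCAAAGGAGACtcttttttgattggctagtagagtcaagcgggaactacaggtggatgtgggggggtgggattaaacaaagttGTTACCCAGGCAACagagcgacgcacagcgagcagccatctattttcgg
Cfap95 (chr1:230669480-230669729, minus strand): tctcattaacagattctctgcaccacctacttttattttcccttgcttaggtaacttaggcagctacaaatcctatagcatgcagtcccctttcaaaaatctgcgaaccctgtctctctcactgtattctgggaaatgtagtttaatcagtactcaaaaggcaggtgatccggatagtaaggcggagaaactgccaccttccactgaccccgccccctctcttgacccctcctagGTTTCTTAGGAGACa

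Dnaaf2 carried a single X-box, which began 88 bases before the start and contained the shorter GTTGCCA motif on the other strand. Dnaaf6 carried 2, which began 135 and 49 bases before the start, and Cfap95 carried one 15 bases before it. The X-boxes of Cfap20dc and Cfap298, which matched the pattern on both strands, and of Dnaaf5 were as follows, in the direction of the gene.
Cfap20dc: GTTGCCTGGGCAAC
Cfap298: GTTGCCCGGGCAAC
Dnaaf5: GTTCCCTTGGAGAC
The genes with these motifs did not move alike. On AD replicate 3, Dnaaf6 was 2.28, Cfap95 1.01, Dnaaf5 0.66 and Cfap20dc 0.25 above the Sham mean, whereas Cfap298 was at -0.29 and Dnaaf2 at -0.57 relative to it.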

How the data were processed

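Hippocampal mRNA of 3 AD and 3 Sham tissue samples was hybridised to single-colour Agilent arrays, and the sample labels gave the groups. The deposited scanner output, made with Agilent Feature Extraction 11.0.1.1 per the file headers, holds for each spot a background-subtracted intensity on a linear scale, with flags, as other columns, for outliers, saturation and signal well above background. The authors also deposited a table of log2 values whose scaling is not stated. All its columns had a median of 6.56, and it ran in the direction of the scanner output. The table's AD replicate 2 correlated best with the scanner file of AD replicate 3 (r = 0.994 across probes) and its AD replicate 3 with that of AD replicate 2 (0.999). It served as an alternative only.

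Control spots and outlier spots (400 to 559 per array) were left out, 0 were saturated, and spots of a probe were averaged. The log2 processed intensity minus the 75th percentile of its array was tested with limma 3.58.1 (R 4.3.3, lmFit and eBayes), two-sided, without covariates, for probes well above background on at least 3 arrays, with Benjamini-Hochberg adjustment over all 22818 of them and a threshold of 0.05. The fit was tested on simulated data. A probe was called well above background on an array when most of its spots were flagged so. Accessions were matched without versions to RefSeq symbols (GRCr8), where 15252 of 26997 matched and 18005 of 30367 probes obtained 1 symbol. The probe with the highest mean signal stood for a gene. A second probe of Cfap68 differed by 0.35, and that of Dnaaf11 was too dim to be tested. Kif27, Kif3b and Fibcd1, called in other lists, had 2 probes each, and only the brighter one is given here.

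Of the 93 genes, 41 had no matched probe here, among them 25 Cfap genes, Dnaaf3, Rsph3, Rsph4a and Tekt5l1. A further 6 had a probe below the filter, Rsph14, Tekt3, Tektl1 and Cfap107 with 1 array well above background and Dnaaf1 and Dnai3 with 2. Just inside it were Cfap97d1, Dnai2 and Dnah1 with 3 arrays, and Cfap45 with 4. The number of arrays limits the precision.

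Genes named by rule were Foxj1, Ak7, called members, the 3 brightest of each role and the 8 with the largest difference of means, and in other lists up to 3 called and the 2 brightest. Some genes the rule takes are left undescribed, and others named with values were chosen after their values were seen. The members and lists were chosen with earlier results of these data known. Alternatives were another scaling (quantile, median, percentile over detected probes), normexp background correction with an offset of 50, no filter or a stricter one, array weights, the mean of a gene's probes, the deposited log2 table, the methods' t-test, replicate number, scan, scan day or slide position as a block (statmod 1.5.0), and each array left out. Normexp used the median spot signal, since the scanner output used here gives no mean signal. The order of AD arrays that was counted was itself taken from these data. The array order under other scalings and the calls of 2 other lists were added after seeing the data.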

Additional observations from a re-analysis of the deposited data

How the results depend on the processing

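The median change of the members was 0.13 and kept its sign except with normexp correction, where it was -0.15 and the median of all tested probes was likewise -0.15. It ranged from 0.04 to 0.18 when 1 array was left out. The count of 2 called members was 1 with the percentile over detected probes and with the methods' t-test, 4 with median scaling, 11 with array weights (4 higher, 7 lower) and 0 with no filter, scan as a random block or slide position as a block, and leaving out 1 array gave 0 to 3. The count of all probes called, 2863, was 8765 with array weights, 1845 with the methods' t-test, 1768 with normexp correction, 4453 with scan day as a fixed block, and 0 with no filter, scan as a random block or slide position as a block. It was 0 to 4453 when 1 array was left out, the highest without Sham replicate 3, which equals the scan day block. For median scaling and the percentile over detected probes that count is not given here. The member counts under them thus have no share beside them. The study's methods took a fold change of at least 2 with an unadjusted p under 0.05. At these thresholds the methods' t-test took 0 of the 46 members. It took 329 of the 22818 tested probes, a share so small that 0 of 46 is no result about the members. The cause of these changes was not tested.

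Of the named members 5 changed sign under some setting. Dnai1, at -0.02, was 0.066 with the percentile over detected probes, 0.085 with array weights, 0.064 with scan day and -0.074 to 0.064 with 1 array left out. Dnah1 was -0.018 with array weights, -0.27 with normexp correction, -0.020 with scan day and -0.17 to 0.52 with 1 array left out. Dnai7 was -0.049 with array weights, -0.0061 with median scaling, -0.024 with scan day and -0.048 to 0.13 with 1 array left out. Cfap418 was -0.012 with median scaling, and Cfap97d1, at 0.52 one of the larger differences, was -0.26 with normexp correction. Over 438 combinations of a named member and an alternative, 385 kept the direction and the side of the threshold, 21 lost the call, 15 gained one and 17 changed sign. The 21 losses all fell on Dnaaf2 and Dnaaf9, the only called members, which had 20 alternatives each. Most of the 438 combinations were of members that had no call to lose.

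Deviations of same-numbered AD and Sham arrays from their group means had correlations of 0.03, 0.07 and 0.14. Arrays of different number were not compared, so this does not settle whether the numbers pair the samples. With the replicate number as a block 0 members and 0 of all probes were called. Dim members near the background flag, such as Dnah1, Dnai2 and Cfap97d1, are the least well measured.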
